A study of Mus musculus with 14 samples.

Results

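A set of 10 genes of the unfolded protein response and of protein disposal from the endoplasmic reticulum (ER) were followed across 14 expression arrays of the mouse line 3T3-L1, a fibroblast line that becomes fat cells under a hormone mixture. The 10 genes were Edem1, Hspa5, Atf4, Atf6, Xbp1, Dnajb9, Herpud1, Sel1l, Hsp90b1 and Pdia4, out of 18193 genes on the array, and all 10 were measured. They were chosen as listed ER stress genes, and they were chosen by measured values too: the choice noted that Edem1 is lower in TP53INP2 knockdown cells at day 0 and not at day 7. The knockdown differences of the 10 genes, and all differences of Edem1, are therefore given as a description with no test. For each gene the brightest probe set assigned to that gene alone was used, and 9 of the 10 genes had other probe sets as a check. All arrays came from cells transduced with lentivirus: a scrambled siRNA sequence in the control cells and a TP53INP2 siRNA sequence in the knockdown cells. RNA was taken at day 0, in confluent preadipocytes, or at day 7 of differentiation, which gave 3 control and 3 knockdown arrays at day 0 and 4 and 4 at day 7. The labels do not say whether replicates were separate cultures or infections, so the spread behind each test may be only technical. In bulk RNA, fewer cells of a type and less RNA per cell cannot be told apart.

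The ER folds secreted and membrane proteins with chaperones and disulfide isomerases, and sends proteins that fail to fold to the cytosol for degradation. When unfolded proteins build up, the sensors IRE1, PERK and ATF6 start the unfolded protein response: IRE1 splices Xbp1 mRNA, PERK raises translation of Atf4 mRNA, and ATF6 is cleaved to a transcription factor. Their targets include the chaperone genes and the genes of ER-associated degradation. Splicing, translation and cleavage are not read by a level of total mRNA. Adipocytes secrete large amounts of adipokines, and Xbp1 is known to take part in adipocyte differentiation.

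Levels are log2 expression values, on which 1 unit is a doubling, and a difference is given with its standard error (SE). A gene was called where the Benjamini-Hochberg adjusted p of limma's moderated test over all 18193 genes was under 0.05. Trp53inp2 itself was at 44.4% of its control level in knockdown cells at day 0 and at 33.7% at day 7, and was lower in every same-numbered pair (3 of 3 and 4 of 4). Of 7 adipocyte markers, 6 rose by day 7 in control and in knockdown cells alike, and 5 and 6 of 6 preadipocyte or fibroblast markers fell. The macrophage genes Ptprc, Adgre1 and Itgam lay between 1.93 and 3.62, and the endothelial genes Pecam1, Cdh5 and Kdr between 2.61 and 3.87 and Tek between 2.25 and 5.23, against array medians of 5.44 to 5.57. Macrophage Csf1r was at 7.27 to 9.88 and Cd68 at 5.99 to 7.12; none of the 5 macrophage markers was called in any comparison, and 1 of 4 endothelial markers fell with differentiation. At day 7 replicates 1 and 2 lay close together: the SD of their difference over genes was 0.10 in control and 0.13 in knockdown cells, against 0.33 to 0.45 and 0.24 to 0.48 for the other pairs of each group. Averaging replicates 1 and 2 into 1 ends some calls of named genes, and where it does, that is said. It was done in all 4 groups, so each day 0 group kept 2 values. At day 0 these replicates were less close, with an SD of 0.20 in control and 0.19 in knockdown cells. The other day 0 pairs had 0.27 to 0.29 and 0.35 to 0.38. Fits with averaging therefore also rest on fewer day 0 values.

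Edem1, an ER lectin that takes mannose-trimmed misfolded glycoproteins out of the folding cycle towards degradation, was low on the 3 day 0 knockdown arrays and lay within 9.52 to 9.83 on all others. It was at 9.62, 9.52 and 9.62 on the day 0 control arrays and at 8.67, 8.68 and 8.74 on the day 0 knockdown arrays. The groups did not overlap. By day 7 the level was 9.75, 9.72, 9.78 and 9.55 in control cells and at 9.83, 9.63, 9.64 and 9.57 in knockdown cells, and these groups overlapped. The knockdown difference was -0.89 ± 0.09 (SE) at day 0, or 53.9% of control, with a 95% interval of -1.09 to -0.69. At day 7 it was -0.03 ± 0.08, with an interval of -0.20 to 0.14. The day 7 difference exceeded that at day 0 by 0.86 ± 0.12. From day 0 to day 7 Edem1 differed by 0.11 ± 0.09 in control cells and by 0.97 ± 0.09 in knockdown cells, which is the same pattern read along time. These values share arrays, and Edem1 was chosen for them.

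**Figure D1:**
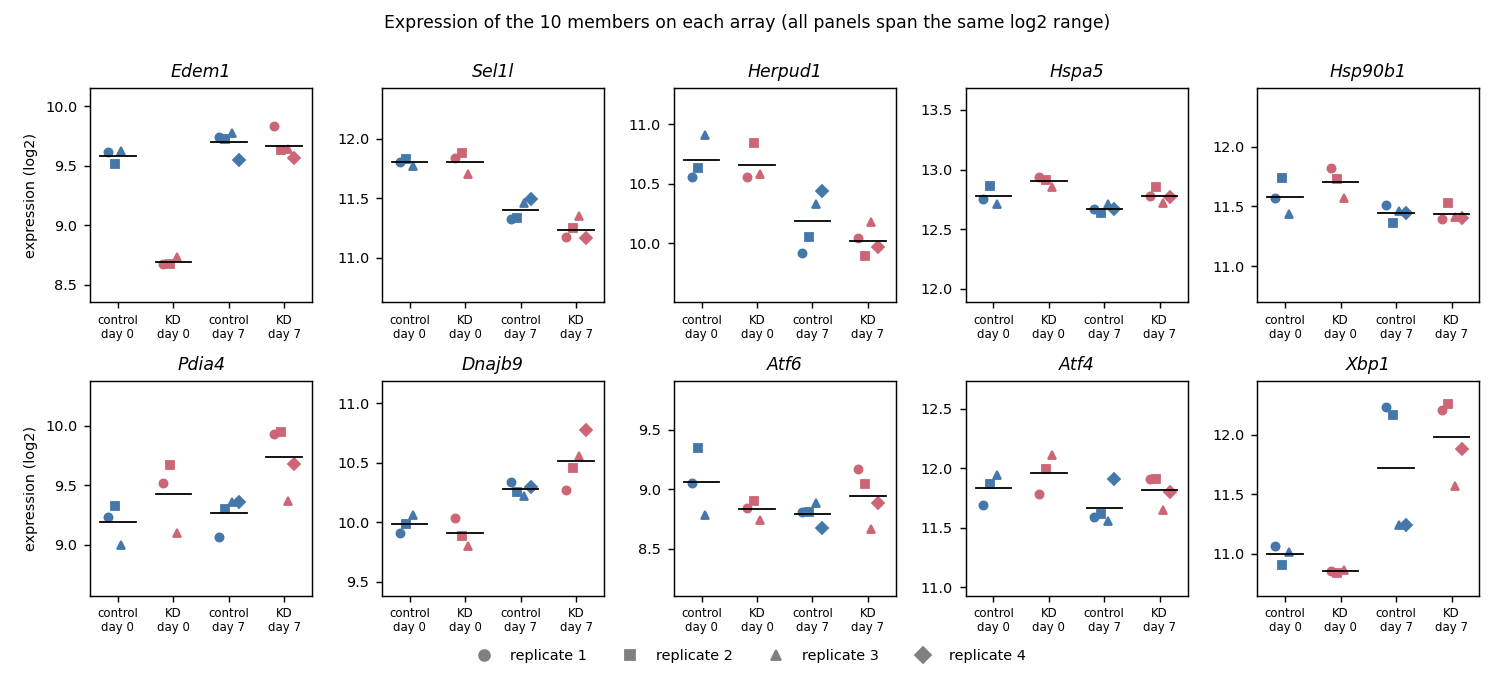
Log2 expression of the 10 genes on each array, by group; symbols mark the replicate number, blue is control, red is knockdown (KD) and the black line is the group mean. Edem1 lies between 8.67 and 8.74 on the day 0 knockdown arrays and between 9.52 and 9.83 on all others, and Xbp1 separates into a high and a low pair among the day 7 controls.

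The second Edem1 probe set gave a smaller day 0 difference and another course over time. It was at 9.06, 9.18 and 9.20 on the day 0 control arrays and at 8.80, 8.89 and 8.83 on the day 0 knockdown arrays, again with no overlap, and its knockdown difference was -0.31 ± 0.12. At day 7 it ranged from 8.78 to 9.05 in control cells and from 8.53 to 8.97 in knockdown cells, with a difference of -0.13 ± 0.10. The rise in knockdown cells on the brighter probe set was not seen on this one, which differed by -0.08 ± 0.11 from day 0 to day 7, against 0.97 for the brighter set. The gap between the brighter and the second set, a value within an array, was 0.56, 0.34 and 0.42 in day 0 controls and -0.12, -0.21 and -0.09 in day 0 knockdown cells. At day 7 it was 0.50 to 0.96 in controls and 0.67 to 1.09 in knockdown cells. The pair of probe sets thus changed unequally, and the sign that Edem1 takes with differentiation depends on which of them is read. In control cells too the second set was lower at day 7, at -0.26 ± 0.11, against 0.11 for the brighter one. Which transcripts each set detects was not analysed here.

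**Figure D2:**
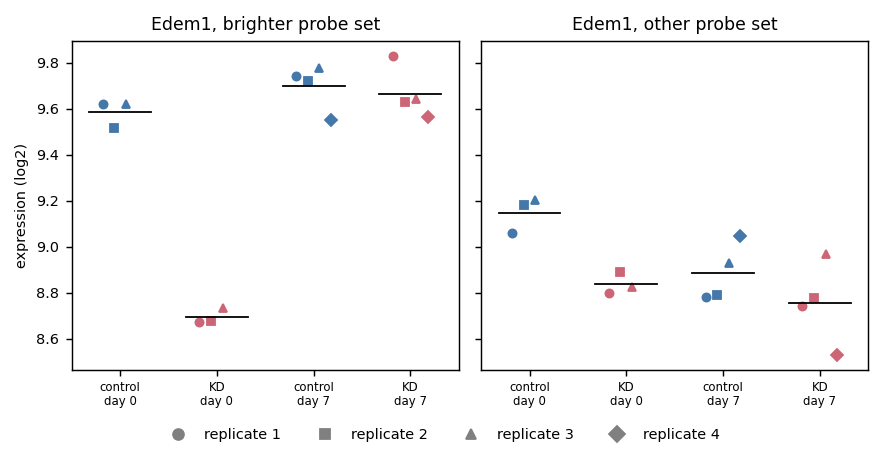
Log2 expression of Edem1 by the brighter and the other probe set on each array, by group; symbols mark the replicate number and lines the group means. Both sets are lower in knockdown cells at day 0, by 0.89 and 0.31, and on both the day 7 groups overlap. Only the brighter set is higher at day 7 than at day 0 in knockdown cells.

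A measure of RNA or amplification quality moved with the day 0 groups. The 3' minus 5' difference of the beta-actin control probe sets was 3.32 to 3.76 in day 0 control cells and 2.74 to 3.23 in day 0 knockdown cells, with no overlap, and that of Gapdh was 2.02 to 2.43 and 1.59 to 1.90. At day 7 the beta-actin ranges overlapped, at 2.82 to 3.48 and 2.70 to 3.37. At day 7 the Gapdh values were 1.24 to 1.79 in control and 1.35 to 1.70 in knockdown cells, so in control cells they also lay below those of day 0 with no overlap. The part of this measure in the Edem1 difference, and in the differences between days, was not tested.

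The genes whose pattern over the 14 arrays was most like that of Edem1 were Nemp1, Eya3, Mettl4, Tdp1 and Arrb2. Likeness was the root mean square difference from Edem1 after each gene's own mean was taken off, and it was 0.136 for Nemp1, 0.158 for Mettl4 and 0.178 for Arrb2, against 0.404 for the spread of Edem1 around its own mean. At day 0 Nemp1 had a mean of 8.56 ± 0.20 in controls and 7.69 ± 0.16 with the knockdown (SD, n = 3 each), and at day 7 the means were 8.74 ± 0.24 and 8.53 ± 0.14 (SD, n = 4 each). Mettl4 had a knockdown difference of -0.80 at day 0 and -0.11 at day 7. None of the other 9 members had this pattern: the nearest, Dnajb9, was at 0.336.

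The other ER disposal members differed little with the knockdown. Sel1l, the scaffold of the HRD1 ubiquitin ligase complex in the ER membrane, was at 11.80, 11.82 and 11.77 in day 0 controls and 11.83, 11.88 and 11.70 in day 0 knockdown cells. At day 7 it was at 11.32, 11.34, 11.46 and 11.49 in controls and 11.18, 11.25, 11.35 and 11.17 in knockdown cells, lower in 4 of 4 same-numbered pairs, with overlapping groups and a difference of -0.17 ± 0.08. Herpud1, an ER membrane protein that helps to assemble the HRD1 complex, had knockdown differences of -0.04 ± 0.15 at day 0 and -0.17 ± 0.13 at day 7.

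Of the chaperones and folding enzymes, Hspa5 and Pdia4 had values above control in every same-numbered pair at both days, and Hsp90b1 did not. Hspa5 encodes BiP, the ER's Hsp70 chaperone and the regulator that holds the sensors inactive. It was at 12.75, 12.86 and 12.71 in day 0 controls and 12.94, 12.92 and 12.85 in day 0 knockdown cells, with a difference of 0.13 ± 0.08. The day 7 arrays were at 12.67, 12.63, 12.71 and 12.67 in controls and 12.78, 12.85, 12.72 and 12.77 in knockdown cells, which did not overlap, with a difference of 0.11 ± 0.07. On the linear scale these are 109.1% and 107.8% of control. A second bright Hspa5 probe set gave 0.14 and 0.15, and a dim one gave -0.35 and -0.07.

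Pdia4, a protein disulfide isomerase, was at 9.24, 9.33 and 8.998 in day 0 controls and 9.52, 9.67 and 9.10 in day 0 knockdown cells, a difference of 0.24 ± 0.18. The day 7 controls were at 9.06, 9.30, 9.36 and 9.36 and the knockdown arrays at 9.93, 9.95, 9.37 and 9.68, a difference of 0.46 ± 0.15. The day 7 groups did not overlap, but replicate 3 of the knockdown cells lay 0.0069 above its same-numbered control while replicate 1 lay 0.87 above. That knockdown replicate also had the lowest mean of the 7 adipocyte markers in its group, 11.60 against 12.43 to 12.62, and without it the Pdia4 difference was 0.59. The other Pdia4 probe set lay near the floor of the arrays, with a mean of 2.63. Hsp90b1, the ER chaperone GRP94, had differences of 0.12 ± 0.10 at day 0 and -0.01 ± 0.08 at day 7. Dnajb9, a BiP cochaperone that represses IRE1, had -0.08 ± 0.12 and 0.24 ± 0.10, and its day 7 groups overlapped at 10.22 to 10.34 in controls and 10.27 to 10.77 in knockdown cells.

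The sensor and the transcription factors had small knockdown differences. Atf6 had -0.23 ± 0.15 at day 0 and 0.15 ± 0.13 at day 7. Atf4 had 0.13 ± 0.12 and 0.15 ± 0.11. Xbp1 was at 11.06, 10.91 and 11.01 in day 0 controls and 10.86, 10.84 and 10.87 in day 0 knockdown cells, which did not overlap, a difference of -0.14 ± 0.26. The SE is that large because all groups share the gene's spread and the day 7 arrays of Xbp1 spread widely.

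Counted over the 10 members, 1 was called at day 0 (Edem1, lower), where 1.8% of all genes tested were called (0.467% higher and 1.34% lower), and 0 at day 7, where 6.58% were (3.01% higher and 3.57% lower). The median difference was -0.02 at day 0 and 0.13 at day 7, against -0.05 and -0.02 over all genes. The groups did not overlap for 2 members at day 0 (Edem1 and Xbp1, both lower) and for 2 at day 7 (Hspa5 and Pdia4, both higher), against 22.6% and 13% of all genes. In the difference of the knockdown effect between days 1 member was called (Edem1), where 0.022% of all genes were (0.0165% higher and 0.0055% lower). The choice of members used these contrasts, so nothing is read from these counts.

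**Figure D3:**
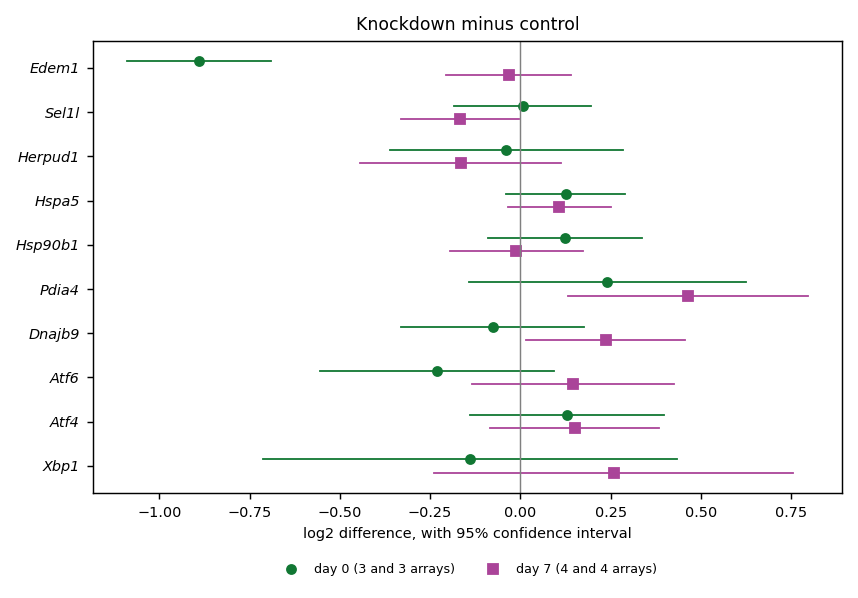
Log2 difference between knockdown and control cells for the 10 genes at day 0 (circles) and day 7 (squares), with 95% confidence intervals. Edem1 at day 0 lies at -0.89, and the other day 0 values lie between -0.23 and 0.24.

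The stretches upstream of 4 members are shown because they hold the response elements through which the unfolded protein response is known to act, or, for Edem1, the member with the largest difference, do not hold them. RefSeq promoter windows (GRCm38.p6, 250 bases before to 50 after the gene's start) were found for 9 of the 10 members. Each window was searched on both strands for 4 motifs: the ER stress element ERSE (CCAAT, 9 free bases, CCACG), ERSE-II (ATTGG, 1 free base, CCACG), the XBP1 and ATF6 core TGACGTG, and the ATF4 and CHOP composite element (TGATG, 1 free base, AA). Only the 250 bases before the start are printed, 5' to 3' on the gene's strand, with matches in capitals.
Edem1 (chr6:108828391-108828640, plus strand): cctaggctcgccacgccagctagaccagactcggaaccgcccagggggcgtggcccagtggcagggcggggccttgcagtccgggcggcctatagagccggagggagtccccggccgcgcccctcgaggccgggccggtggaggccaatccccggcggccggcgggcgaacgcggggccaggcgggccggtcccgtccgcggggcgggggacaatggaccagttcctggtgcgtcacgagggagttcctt
Hspa5 (chr2:34771840-34772089, plus strand): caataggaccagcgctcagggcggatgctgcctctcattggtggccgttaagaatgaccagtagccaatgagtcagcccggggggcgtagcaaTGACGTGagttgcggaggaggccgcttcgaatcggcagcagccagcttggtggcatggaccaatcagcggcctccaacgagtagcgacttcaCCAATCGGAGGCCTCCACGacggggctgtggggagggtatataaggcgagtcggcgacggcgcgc
Hsp90b1 (chr10:86705445-86705694, minus strand): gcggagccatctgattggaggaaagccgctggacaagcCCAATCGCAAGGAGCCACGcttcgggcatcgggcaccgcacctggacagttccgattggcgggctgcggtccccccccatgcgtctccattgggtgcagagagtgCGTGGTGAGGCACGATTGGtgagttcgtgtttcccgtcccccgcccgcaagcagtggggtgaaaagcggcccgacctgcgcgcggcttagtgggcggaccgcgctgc
Herpud1 (chr8:94386179-94386428, plus strand): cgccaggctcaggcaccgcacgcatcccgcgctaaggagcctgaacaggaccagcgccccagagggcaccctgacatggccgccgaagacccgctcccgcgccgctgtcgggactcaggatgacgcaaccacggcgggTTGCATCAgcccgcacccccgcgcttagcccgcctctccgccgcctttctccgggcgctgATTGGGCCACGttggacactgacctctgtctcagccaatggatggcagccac

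The Hspa5 window held 1 ERSE match, at bases -65 to -47 from the start, and 1 match to TGACGTG at -157 to -151. The Hsp90b1 window held 2 ERSE matches in opposite orientation, at -212 to -194 and -107 to -89. Herpud1 held an ERSE-II match at -52 to -42 and, on the other strand, a composite element at -112 to -105. No matches overlapped. Among all 32851 windows of the same 300 bases, 0.119% held ERSE, 0.0365% ERSE-II, 2.01% TGACGTG and 3.97% the composite element. The windows of Edem1, Sel1l, Dnajb9, Pdia4, Atf4 and Xbp1 held none of the 4 motifs, which says only that these letters are not in these windows. The 3 members with matches had day 0 knockdown differences of 0.13 (Hspa5), 0.12 (Hsp90b1) and -0.04 (Herpud1). Those without a match were at 0.01 (Sel1l), -0.08 (Dnajb9), 0.24 (Pdia4), 0.13 (Atf4) and -0.14 (Xbp1). Edem1, also without a match and chosen for its value, was at -0.89.

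Differentiation moved the members in both directions. The rule that chose the members did not name these values for the 9 members other than Edem1. The members were still chosen with earlier results of these data known, and these values share arrays with the knockdown differences. The disposal genes Sel1l and Herpud1 fell by day 7 in control and in knockdown cells, Xbp1 and Dnajb9 rose in knockdown cells, and Hsp90b1 fell in knockdown cells. Hspa5, Pdia4, Atf4 and Atf6 did not pass the test in either. In control cells 2 of these 9 members were called, both lower, against 22.9% of all genes (10.1% higher and 12.8% lower), and their median difference was -0.14 against -0.01. In knockdown cells 5 of the 9 were called, 2 higher and 3 lower, against 35.8% of all genes (19% higher and 16.8% lower), and the median was -0.12 against 0.01. The arrays of the days did not overlap for 5 of the 9 in control cells and 5 in knockdown cells, against 32.8% and 39.3% of all genes.

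Sel1l, whose arrays are given above, lay between 11.77 and 11.82 in day 0 controls and between 11.32 and 11.49 at day 7, with no overlap. In control cells it fell by 0.40 ± 0.08 log2 units (limma, adjusted p = 0.003861) and by 0.57 ± 0.08 in knockdown cells (adjusted p = 0.0001404). Of its 4 other probe sets, 3 were lower at day 7 in both, at -0.38 to -0.78, and 3 passed in knockdown cells and 1 in control cells. The remaining set was at 0.02 and 0.04. With replicates 1 and 2 averaged the control difference was -0.36 with an adjusted p of 0.08581, and the knockdown difference was -0.54 with 0.01082.

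Herpud1 was at 10.55, 10.64 and 10.91 in day 0 controls and at 9.92, 10.06, 10.33 and 10.44 at day 7. In knockdown cells it was at 10.56, 10.84 and 10.58 at day 0 and at 10.04, 9.90, 10.18 and 9.97 at day 7. Neither comparison overlapped. It fell by 0.51 ± 0.14 in control cells (limma, adjusted p = 0.01792) and by 0.64 ± 0.14 in knockdown cells (adjusted p = 0.002785), and the second probe set passed in both. The control call was lost without control day 0 replicate 3 (adjusted p = 0.08441), without control day 7 replicate 1 (0.05275) or replicate 2 (0.0533), with replicates 1 and 2 averaged (0.1079) and when the control groups were fitted alone (0.05657).

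Xbp1 split the day 7 controls: replicates 1 and 2 were at 12.23 and 12.17 and replicates 3 and 4 at 11.24 and 11.24. The day 7 knockdown arrays were at 12.21, 12.26, 11.57 and 11.88, where replicate 3 was the lowest and replicates 1 and 2 the highest. Every day 7 array lay above every day 0 array. The rise in knockdown cells was 1.12 ± 0.25 (limma, adjusted p = 0.00304), or 217.5% of the day 0 level, and all 4 Xbp1 probe sets passed there at 1.02 to 1.302. In control cells the difference was 0.72 ± 0.25 and missed the threshold (adjusted p = 0.05225). With the replicate number as a block it was 0.82 with an adjusted p of 0.01673. The mean level of the 7 adipocyte markers split the same arrays: 11.97 and 12.02 in control replicates 1 and 2, 10.63 and 10.87 in replicates 3 and 4, and 12.48, 12.43, 11.60 and 12.62 in knockdown replicates 1 to 4. Its part in the Xbp1 values was not tested. The difference between control and knockdown cells in the Xbp1 change was 0.40 ± 0.35 and is a description, as it is the knockdown difference between days.

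Dnajb9 was at 9.91, 9.98 and 10.06 in day 0 controls and at 10.34, 10.25, 10.22 and 10.30 at day 7, with no overlap, a difference of 0.29 ± 0.11 (limma, adjusted p = 0.07403). In knockdown cells it was at 10.04, 9.88 and 9.80 at day 0 and at 10.27, 10.46, 10.55 and 10.77 at day 7, and it rose by 0.61 ± 0.11 (adjusted p = 0.0007824). Hsp90b1 fell in knockdown cells from 11.82, 11.73 and 11.57 to 11.40, 11.53, 11.41 and 11.41, by 0.27 ± 0.09 (limma, adjusted p = 0.03429). Its second probe set fell by 0.58. The Hsp90b1 call was lost without knockdown day 0 replicate 1 (adjusted p = 0.1505) or replicate 2 (0.09014), without knockdown day 7 replicate 1 (0.07737), 3 (0.05769) or 4 (0.0697), with replicates 1 and 2 averaged (0.1639), with arrays shifted to 1 median (0.05437) and when the knockdown groups were fitted alone (0.07592).

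The BiP gene Hspa5 was within 0.13 of its day 0 level at day 7, at -0.11 ± 0.07 in control cells (limma, adjusted p = 0.3445) and -0.12 ± 0.07 in knockdown cells (adjusted p = 0.2129). The 95% intervals, -0.26 to 0.05 and -0.28 to 0.03, give the sizes of change that these arrays are compatible with, and both include 0. Pdia4 differed by 0.08 ± 0.17 and 0.31 ± 0.17, and Atf4 by -0.16 ± 0.12 and -0.14 ± 0.12. Atf6 depended on the probe set. The brightest one differed by -0.27 ± 0.14 in control and 0.11 ± 0.14 in knockdown cells and did not pass in either. A dimmer one, with a mean of 7.47, fell by 1.07 (limma over all probe sets, adjusted p = 0.0005451) and by 0.85 (adjusted p = 0.001079). The third, with a mean of 6.77, fell by 0.65 in control cells (adjusted p = 0.002798) and was at -0.15 in knockdown cells, so 2 of 3 sets passed lower in control cells.

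**Figure D4:**
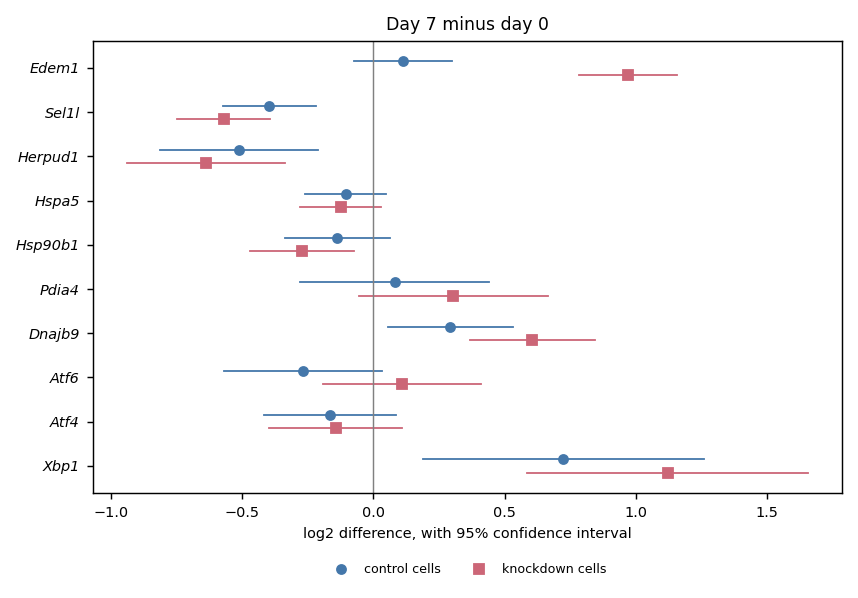
Log2 difference between day 7 and day 0 for the 10 genes in control (circles) and knockdown (squares) cells, with 95% confidence intervals. Sel1l and Herpud1 lie below 0 in both, Xbp1 and Dnajb9 above 0 in both, and Edem1 lies at 0.11 and 0.97.

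The rest of the pathway was read from 6 lists with 135 measured genes of 141 listed, none of them members. At day 0, 2 of the 135 were called with the knockdown, both lower, or 1.48% against 1.8% of all genes tested, and the median difference was 0.00 against -0.05. These counts read the brightest probe sets. A dimmer Sec63 set, with a mean of 8.37, was higher by 0.99 ± 0.16 (limma over all probe sets, adjusted p = 0.007573). The brightest Sec63 set was at -0.08. A dimmer Shmt2 set, with a mean of 8.76, was lower by 0.49 ± 0.10 (limma over all probe sets, adjusted p = 0.01889). Erlin2, which with Erlin1 forms an ER membrane complex that hands IP3 receptors to degradation, was at 9.72, 9.79 and 9.77 in day 0 controls and 8.93, 9.09 and 9.07 in day 0 knockdown cells. It was lower by 0.73 ± 0.09 (limma, adjusted p = 0.001292). The Erlin2 groups stayed apart at day 7, at 9.66, 9.66, 9.66 and 9.53 in controls and 8.73, 8.92, 8.72 and 8.68 in knockdown cells, where it fell by 0.86 ± 0.08 (adjusted p = 0.000122). The call at day 0 was lost when replicates 1 and 2 were averaged (adjusted p = 0.08037). Ero1a, the oxidase that recharges the disulfide isomerases, was lower at day 0 by 0.82 ± 0.19 (limma, adjusted p = 0.04839), at 12.63, 12.61 and 12.64 in controls and 11.70, 11.85 and 11.86 in knockdown cells. Its 2 other probe sets gave -0.53 and -1.08 and did not pass. At day 7 the brightest set was at -0.29 and did not pass, and the other sets were at -0.64 and -0.88. Of those, the first passed (limma over all probe sets, adjusted p = 0.04936) and the second did not (0.09056). The Ero1a call at day 0 was kept in 2 of 14 fits that left out 1 array. These were the fits without replicate 3 of the day 7 controls or of the day 7 knockdown cells. The call was lost in the others with adjusted p up to 0.1582. It was lost too with replicates 1 and 2 averaged (0.4409). With the replicate number as a block 6 of the 135 were called at day 0: Erlin2, Ero1a, Mogs, Shmt2 and Slc7a5 lower and Erp29 higher.

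At day 7 the knockdown cells had 13 called genes of the 135, 6 higher and 7 lower, or 9.63% against 6.58% of all genes. In the degradation list 3 of 41 rose and 2 fell. Os9, a lectin that brings glycoproteins to the HRD1 complex, fell by 0.57 ± 0.12 (limma, adjusted p = 0.01806), and Fbxo2, which recognises sugars for a ubiquitin ligase, rose by 0.61 ± 0.15 (adjusted p = 0.03499). In the list of chaperones and folding enzymes 1 of 34 rose and 2 fell. Mogs, the glucosidase that starts N-glycan trimming, fell by 0.54 ± 0.11 (limma, adjusted p = 0.01806), Dnajc3, a BiP cochaperone, fell by 0.44 ± 0.08 (adjusted p = 0.009484), and Erp29, a folding factor, rose by 0.54 ± 0.13 (adjusted p = 0.03221). None of the 4 other Dnajc3 probe sets passed, and 1 of them was higher, at 0.28.

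Among 20 targets of ATF4 and CHOP, 2 rose and 1 fell with the knockdown at day 7, or 15% against 6.58% of all genes. Cars, a cysteine tRNA synthetase, rose by 0.54 ± 0.14 (limma, adjusted p = 0.03574), Phgdh, the first enzyme of serine synthesis, by 0.25 ± 0.07 (adjusted p = 0.03935), and Vldlr, a lipoprotein receptor, fell by 0.56 ± 0.14 (adjusted p = 0.0379). The other Cars probe set was at -0.09. The ER-phagy receptor Ccpg1 fell by 0.48 ± 0.11 (adjusted p = 0.02556), 1 of 8 in its list. Atl3 in that list was at 0.07 on its brightest probe set. Dimmer Atl3 sets, with means of 8.70 and 6.98, were higher by 0.83 and 0.98. Both passed (limma over all probe sets, adjusted p = 0.01541 and 0.01979). The remaining Atl3 sets were at 0.72 and -0.02 and did not pass. Sec63, a translocon partner of BiP and 1 of 20 in its list, fell by 0.70 ± 0.12 (adjusted p = 0.00729), but another Sec63 probe set was higher by 0.54 with an adjusted p of 0.04149 over all probe sets, so the direction depends on the probe set. Of the 12 sensors and transducers none passed with the knockdown at either day, where 2 (16.7%) and 6 (50%) had an unadjusted p under 0.05 in the same limma fit, against 15.4% and 23.5% of all genes. Eif2ak3, which encodes the sensor PERK, was nearest, at -0.24 ± 0.07 at day 7 (limma, adjusted p = 0.05291), and Ern1, which encodes IRE1, was at -0.39 ± 0.16 at day 0 (adjusted p = 0.2519).

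The count at day 7 moved with single arrays. Without knockdown day 7 replicate 3 it was 31 of 135, and it was 8 without control day 7 replicate 1 or 2, 4 without control replicate 3, 5 without control replicate 4, 4 and 5 without knockdown replicates 1 and 2, and 3 without knockdown replicate 4. With replicates 1 and 2 averaged it was 1, and with the replicate number as a block it was 19, 12 higher and 7 lower. Of the 11 calls named for day 7, those of Erlin2, Dnajc3 and Sec63 were kept whichever array was left out. Mogs was lost without knockdown day 7 replicate 4 (adjusted p = 0.05115). Os9 and Ccpg1 were kept in 10 of 14 such fits, Erp29 in 8, Fbxo2 in 7, Cars in 6, Vldlr in 5 and Phgdh in 2, and each of these 7 was lost without knockdown day 7 replicate 1 and without replicate 4. Phgdh was also lost with arrays shifted to 1 median (adjusted p = 0.07485). With replicates 1 and 2 averaged, Erlin2 alone of the 11 was kept, and the others had adjusted p from 0.1062 to 0.227. When the day 7 groups were fitted alone, Vldlr, Phgdh, Mogs, Erp29, Fbxo2 and Os9 were lost. Cell type markers moved with the day 7 knockdown: the mean adipocyte marker level was higher in 4 of 4 same-numbered pairs, by 0.51, 0.42, 0.97 and 1.74, and the mean preadipocyte or fibroblast level lower in 4 of 4, at -0.43, -0.40, -0.23 and -0.81. Singly, at day 7, 0 of 7 adipocyte markers were called and 2 of 6 preadipocyte or fibroblast markers, both lower. The adipocyte mean was above control in every same-numbered pair at day 0 too, by 0.48, 0.81 and 0.10. The preadipocyte or fibroblast mean was lower there in every pair, at -0.049, -0.037 and -0.051, and no marker of either list was called. The part of these markers in the pathway calls and in the Edem1 difference was not tested. On its brightest probe set no pathway gene passed in the difference of the knockdown effect between days. There 21 of 135 (15.6%) had an unadjusted p under 0.05 in the same limma fit, against 13.2% of all genes. The lists differed: 10 of the 20 ATF4 and CHOP targets (50%) had such a p, against 0% to 17.1% in each other list. The median difference of these targets was 0.30 against 0.04 over all genes, with 16 above 0 and 4 below. Their median knockdown difference was -0.24 at day 0, against -0.05, with 6 above 0 and 14 below. At day 7 it was 0.11, against -0.02, with 14 above 0 and 6 below. At day 0, 30% had an unadjusted p under 0.05 in the same limma fit, against 15.4% of all genes. The 3' minus 5' measure separated the day 0 groups, and its part in these values was not tested. The nearest in their lists included Phgdh at 0.55 ± 0.10 (limma, adjusted p = 0.0725), Ccpg1 at -0.82 ± 0.17 (adjusted p = 0.08731) and Tmub1 at 0.69 ± 0.19 (adjusted p = 0.1732). A dimmer Shmt2 probe set, with a mean of 8.16, passed at 0.86 ± 0.13 (limma over all probe sets, adjusted p = 0.0483). The other Shmt2 sets did not pass, and neither did any Phgdh set.

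**Figure D5:**
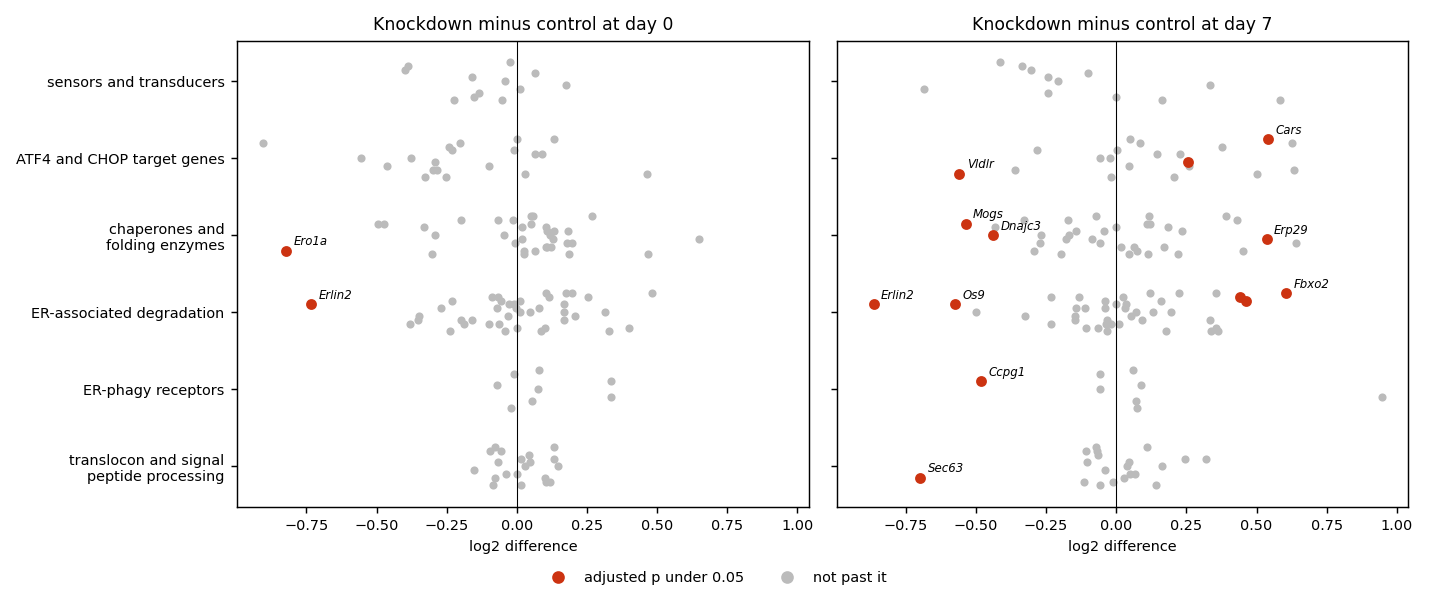
Log2 difference between knockdown and control cells at day 0 and day 7 for the 135 other pathway genes in 6 lists, 1 point a gene; red points have an adjusted p under 0.05. At day 0 the 2 red points are Erlin2 and Ero1a, and at day 7 there are 13, on both sides of 0, with Erlin2 the lowest at -0.86.

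With differentiation the other pathway genes were called more often downwards than upwards in control cells: 11 rose and 36 fell, or 34.8% against 22.9% of all genes, with 10.1% of all genes higher and 12.8% lower. In knockdown cells 30 rose and 39 fell, or 51.1% against 35.8%. The list of sensors and transducers had 8 of 12 lower in control cells and 7 lower and 1 higher in knockdown cells. Ddit3, which encodes the stress factor CHOP, was at 10.49, 10.68 and 11.03 in day 0 controls and 9.03, 9.24, 9.75 and 10.08 at day 7. It fell by 1.21 ± 0.23 in control cells (limma, adjusted p = 0.002661) and by 1.29 ± 0.23 in knockdown cells (adjusted p = 0.0007912). Creb3l1, a cleaved ER transcription factor related to ATF6, fell in both, with differences of -1.44 ± 0.31 and -2.13 ± 0.31 (limma, adjusted p = 0.004848 and 0.000152). Ern1 fell by 0.71 ± 0.15 in control cells (adjusted p = 0.003671), where a dim probe set with a mean of 4.19 gave 0.43, and Creb3l2 by 0.94 ± 0.16 in knockdown cells (adjusted p = 0.0004802). The second Creb3l2 probe set, with a mean of 7.06, went the other way. It was at 0.36 ± 0.17 in control and 0.43 ± 0.17 in knockdown cells and did not pass in either.

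Of the ATF4 and CHOP targets more were called higher than lower, with 5 of 20 higher and 3 lower in control cells and 11 higher and 1 lower in knockdown cells. Both directions together make 40% and 60%, against 22.9% and 35.8% of all genes. Those that rose included enzymes of serine and one-carbon metabolism. Psat1, of serine synthesis, was at 11.79, 11.91 and 12.25 in day 0 controls and 12.82, 12.91, 12.85 and 12.94 at day 7. It rose by 0.90 ± 0.12 in control cells (limma, adjusted p = 0.0001524) and by 1.44 ± 0.12 in knockdown cells (adjusted p = 2.17e-06). Shmt2, of mitochondrial one-carbon metabolism, rose by 1.23 ± 0.11 in knockdown cells (limma, adjusted p = 3.437e-06) and Slc7a5, an amino acid transporter, by 1.40 ± 0.27 (adjusted p = 0.001226). Ddit4, an inhibitor of mTORC1, rose by 1.05 ± 0.19 in control cells (adjusted p = 0.001384), while Trib3, a pseudokinase induced by CHOP, fell by 0.87 ± 0.24 (adjusted p = 0.01948).

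Of the 34 chaperones and folding enzymes, 9 fell and 0 rose in control cells, and 13 fell and 4 rose in knockdown cells. That is 26.5% and 50% called, against 22.9% and 35.8% of all genes. Pdia5, a disulfide isomerase, fell in both, at -1.39 ± 0.28 and -1.497 ± 0.28 (limma, adjusted p = 0.003165 and 0.0009271), and so did Sil1, the nucleotide exchange factor of BiP, at -0.85 ± 0.15 and -1.24 ± 0.15 (adjusted p = 0.001444 and 4.207e-05). Uggt2 fell by 0.63 in control cells (limma, adjusted p = 0.03971), a call lost with the replicate block (-0.60, adjusted p = 0.07093). Fkbp14, a prolyl isomerase, fell by 0.99 ± 0.11 in knockdown cells (limma, adjusted p = 1.761e-05).

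In the degradation list 4 of 41 rose and 10 fell in control cells, and 10 rose and 10 fell in knockdown cells. The shares called were 34.1% and 48.8%, against 22.9% and 35.8% of all genes. Selenok, an ER selenoprotein of the degradation machinery, fell in both, at -0.90 ± 0.12 and -0.96 ± 0.12 (limma, adjusted p = 0.0001801 and 4.429e-05). Os9 fell by 1.14 ± 0.13 in knockdown cells (adjusted p = 2.481e-05), Dnajb2 by 0.76 ± 0.17 in control cells (adjusted p = 0.006694), and Fbxo2 rose by 0.58 ± 0.16 in control cells (adjusted p = 0.02112). Rad23b, a shuttle to the proteasome, rose by 0.86 ± 0.12 in knockdown cells (limma, adjusted p = 0.0001325), where a dim probe set with a mean of 4.31 gave -0.70.

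The 8 ER-phagy receptors held the gene with the smallest p among those named. Ccpg1, which links ER fragments to autophagosomes, was at 10.59, 10.75 and 10.54 in day 0 controls and 9.19, 9.28, 9.25 and 9.37 at day 7. In knockdown cells it was at 11.13, 11.09 and 10.68 at day 0 and 8.64, 8.94, 8.87 and 8.71 at day 7. It fell by 1.36 ± 0.12 in control cells (limma, adjusted p = 1.365e-05) and by 2.17 ± 0.12 in knockdown cells (adjusted p = 2.641e-07), and the second probe set gave -0.75 and -1.34. Tex264, another receptor, fell in both, at -0.45 ± 0.10 and -0.58 ± 0.10 (limma, adjusted p = 0.007151 and 0.0006691), and Atl3 rose by 0.42 ± 0.08 and 0.52 ± 0.08 (adjusted p = 0.002625 and 0.0002906). The size depends on the probe set. Dimmer Atl3 sets rose by 1.16, 1.35 and 0.92 in control cells and by 1.92, 1.97 and 1.86 in knockdown cells. The dimmest set was at 0.28 and -0.05 and did not pass.

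Of the 20 translocon and signal peptide genes, 1 rose and 3 fell in control cells and 3 rose and 4 fell in knockdown cells. These are 20% and 35%, near the 22.9% and 35.8% of all genes. Tram1, of the translocation channel, fell in both, at -0.29 ± 0.09 and -0.53 ± 0.09 (limma, adjusted p = 0.02804 and 0.0004284). Srp72, of the signal recognition particle, rose by 0.45 ± 0.09 in knockdown cells (adjusted p = 0.001628), and Srpr, the particle's receptor, fell by 0.25 ± 0.07 in control cells (adjusted p = 0.02148). Sec63 fell in both, at -0.52 ± 0.13 and -1.14 ± 0.13 (limma, adjusted p = 0.01152 and 2.558e-05) on its brightest probe set, and in knockdown cells another of its sets rose by 0.53 (adjusted p = 0.01069 over all probe sets). 

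With replicates 1 and 2 averaged, 12 of the 135 genes were called in control cells instead of 47 and 42 in knockdown cells instead of 69. Of the pathway calls named above, all 18 in knockdown cells were kept. In control cells Ddit3, Ddit4, Psat1, Sil1, Selenok, Ccpg1 and Atl3 were kept. Creb3l1, Ern1, Trib3, Pdia5, Uggt2, Dnajb2, Fbxo2, Tex264, Sec63, Tram1 and Srpr were lost there, with adjusted p from 0.06081 to 0.2061. When the control groups were fitted alone, Trib3 (limma, adjusted p = 0.07357) and Srpr (0.0629) were lost. Leaving out 1 control array also ended the control-cell calls of Trib3 (day 0 replicate 3, day 7 replicates 1 and 2), Uggt2 (each day 0 replicate, day 7 replicates 1 to 3), Fbxo2 (day 0 replicate 1), Sec63 (day 0 replicate 3), Tram1 (each day 0 replicate, day 7 replicates 1 and 2) and Srpr (day 0 replicates 1 and 2, day 7 replicate 2).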

How the data were processed

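RNA of 14 samples was amplified with the Ovation system, biotin-labelled and read on 1 expression array each. Per the submitters' processing notes the values were made with RMA in the affy package, and the deposited values are on a log2 scale, from 1.13 to 14.37. Scanner intensities were not used here. Of 45101 probe sets, 34945 were assigned to 1 gene symbol, 932 to several and 9160 to none, and 64 were controls; 18031 of the 18193 symbols were found in the RefSeq gene table. Each gene was read from its brightest single-symbol probe set (by mean over 14 arrays).

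The members and lists were chosen with earlier results of these data known. Groups came from the genotype and time labels. limma 3.58.1 (R 4.3.3) fitted 1 mean per group over all arrays and genes, with eBayes (12.6 degrees of freedom after moderation) and Benjamini-Hochberg adjustment at 0.05. The test was checked on simulated data in which every array was drawn independently. That check does not cover arrays that deviate together, as same-numbered ones did here. The number of arrays limits the precision. No low-value filter was used. Named pathway genes were, per list and contrast, the up to 3 called genes with the largest difference, or, where none was called, the 1 with the lowest adjusted p. Further genes were named after their values were seen where a count was small.

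Same-numbered control and knockdown samples deviated together from their group means over 18193 genes, with correlations of 0.21, 0.19 and 0.33 at day 0 and 0.43, 0.48, 0.59 and 0.39 at day 7, so the replicate numbers in the labels were taken as pairs. For control replicates 1 and 2 at day 7 the best match was a knockdown array of another number. Alternatives were the replicate block, other probe sets, leaving out the dimmest 40% of genes, a shift to 1 median, averaged replicates 1 and 2, fits of the contrast's groups alone and leaving out each array.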

Additional observations from a re-analysis of the deposited data

Results flagged for a closer look

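Over 20 sets of 4 arrays (10 genes, 2 genotypes at day 7), 2 held an array far from the other 3, where chance gives about 1 in 20. Atf4 was at 11.9135 in control day 7 replicate 4, against 11.55 to 11.61 on the other 3 arrays. Hsp90b1 was at 11.5283 in knockdown day 7 replicate 2, against 11.40 to 11.41 on the other 3. The knockdown difference of Edem1 at day 7 exceeded that at day 0 by 0.86 ± 0.12 (SE); Edem1 was chosen for this difference, so it is a description, and on the second Edem1 probe set the value was 0.18 ± 0.16.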

How the results depend on the processing

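The fits compared 3 or 4 arrays a group. With the replicate block 6 other pathway genes were called with the knockdown at day 0 instead of 2, Shmt2 among them. At day 7 there were 19 instead of 13, with 12 higher and 7 lower, where 1850 of all genes were called instead of 1197. With differentiation 78 were called in knockdown cells instead of 69. The Xbp1 rise in control cells passed, and Uggt2 (control cells) no longer passed. The block changed no other call among the members and the pathway genes named under the rule. Reading the probe set of largest interquartile range left 0 members called at day 0 and 0 in the difference between days, and 1 other pathway gene at day 0. Without the dimmest 40% of genes, 4 members were called with differentiation in control cells, 8 other pathway genes at day 0 and 2 in the difference. With arrays shifted to 1 median 7 other pathway genes were called at day 0. With replicates 1 and 2 averaged, members called were 0 in the difference and 0 with differentiation in control cells, and other pathway genes were 0 at day 0, 1 at day 7, 12 with differentiation in control cells and 42 in knockdown cells. Fitting only the groups of the contrast gave 5 other pathway genes at day 7. The cause of these changes was not tested.

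Leaving out 1 array in turn, members called ranged from 1 to 1 at day 0, 0 to 1 at day 7, 0 to 1 in the difference, 1 to 3 with differentiation in control cells and 5 to 6 in knockdown cells. Other pathway genes ranged from 1 to 5, 3 to 31, 0 to 4, 30 to 50 and 56 to 71 in the same order.

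Differentiation values that changed sign did so mostly with the probe set. Under the probe set of largest interquartile range, control cells gave 0.12 for Atf4, 0.43 for Ern1 and -0.64 for Rad23b, and knockdown cells gave -0.86 for Atf6, 0.13 for Atf4, 0.0915 for Hspa5, -0.0838 for Edem1 and -0.70 for Rad23b. Other probe sets gave, in control cells, 0.12 (Atf4), -0.11 (Pdia4) and 0.0245 (Sel1l), and in knockdown cells -0.85 and -0.15 (Atf6), 0.13 (Atf4), 0.0915 (Hspa5), -0.0104 (Pdia4), -0.0838 (Edem1) and 0.0409 (Sel1l). The second Edem1 set was at -0.26 in control cells. Without control day 0 replicate 3, Pdia4 was at -0.0126 in control cells, the lowest of its range up to 0.152. For tested single-gene values that were called, 1262 alternative values kept direction and call, 187 lost the call and 5 reversed; for those not called, 213 stayed so, 13 passed and 12 changed sign. The call of the Edem1 difference between days, a description, held in 4 of 14 fits without 1 array. Probe sets near the floor (Pdia4's second, Rad23b's and Ern1's dim ones) limit what their signs can show.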
